A study of Mus musculus with 18 samples.

Results

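The genes described here make sterols and fatty acids or control that synthesis, in mouse embryonic stem cells given DNA-damaging treatments. The list held 37 genes, and 35 of them had an array probe that named the gene alone, out of 19935 genes measured. These were 17 sterol synthesis genes (6 of the mevalonate steps and 11 from squalene on), 6 regulators including a sterol carrier, and 12 fatty acid synthesis genes. Acat2 and Acsl3 were not analysed here. For a gene with several probes, the brightest over the 18 arrays stood for it.

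Total RNA was measured on 18 whole-transcript arrays in groups labelled as embryonic stem cells or the R1E line, all grown with leukemia inhibitory factor and serum. R1E is a mouse embryonic stem cell line. Its cells received 0.5 µM adriamycin for 8 hours (4 arrays), ultraviolet light (UV) at 25 J/m² with harvest at 8 hours (4 arrays), or a mock treatment (4 arrays). Adriamycin, also called doxorubicin, poisons topoisomerase II and breaks DNA, whereas UV cross-links neighbouring bases. Cells of genotype p53-/-, on a 129X1 x 129S1 background and lacking the damage-activated transcription factor p53, received 0.5 µM adriamycin for 8 hours (3 arrays) or were untreated (3 arrays). The labels give neither how the p53-/- line was made nor whether it is 1 clone. All values below are deposited log2 intensities, on which a difference of 1 is a doubling, and the R1E and p53-/- arrays were normalized as separate sets.

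Cholesterol is built from acetyl-CoA through mevalonate, farnesyl diphosphate, squalene and lanosterol, and fatty acids are built from the same precursor through malonyl-CoA. Transcription of both pathways is driven by the sterol regulatory element-binding proteins (SREBPs), encoded by Srebf1 and Srebf2. Scap carries SREBPs from the endoplasmic reticulum to the Golgi for cleavage, and the Insig proteins hold Scap back when sterols are plentiful. In liver and tumour cells p53 is known to restrain the mevalonate pathway.

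Array medians lay between 5.30 and 5.61. Replicates were less alike in the p53-/- set, where the median standard error (SE) of a gene's change was 0.140, against 0.0634 in the R1E set. Without p53-/- untreated replicate 3, the genes called between the p53-/- groups numbered 307 lower and 135 higher, against 16 lower and 3 higher with it. Nothing in the labels shows that replicate arrays are separate cultures, and the p-values below therefore rest on a spread that may be technical. The level of Trp53, which would check the p53-/- label, was not analysed here. The mean over 10 embryonic stem cell markers, such as Nanog and Sox2, lay between 10.16 and 10.24 in the R1E adriamycin arrays, between 10.58 and 10.63 in the UV arrays and between 10.84 and 10.90 in the mock arrays. It lay between 9.54 and 9.59 in the p53-/- adriamycin arrays and between 9.60 and 9.76 in the untreated arrays. Of these markers 10 of 10 were lower after adriamycin in R1E cells and 7 were lower after UV. Of all genes 25.6% and 21.2% were called lower, and 41.2% and 35.5% of those brighter than the median R1E gene. In p53-/- cells limma called 0 of the markers. At an unadjusted p below 0.05 there were 2 of them, and 2319 of all 19935 genes. The mean over 10 fibroblast markers lay between 4.81 and 4.95 in the R1E adriamycin arrays, between 4.85 and 4.97 in the UV arrays and between 4.77 and 4.87 in the mock arrays. In the p53-/- set it lay between 6.47 and 6.79 after adriamycin and between 6.63 and 6.77 without it, with Col1a1 at 9.64 and 9.93 on average in those groups. The part of other cells in the results below was not tested, and in bulk RNA fewer cells of a type and less RNA per cell cannot be told apart.

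The first comparison asked what adriamycin did to these genes in R1E cells. Sterol synthesis fell nearly throughout: 15 of 17 genes were lower and 0 were higher at a Benjamini-Hochberg adjusted p below 0.05 in limma's moderated test. The median change over the 17 genes was -0.37 on the log2 scale, while the median over all genes was -0.02. Of all 19935 genes, 25.6% were called lower and 22.1% higher. All 35 members are brighter than the median R1E gene, and among such genes calls are more frequent, at 41.2% lower and 29.1% higher. The exceptions were Mvk and Pmvk, the kinases that phosphorylate mevalonate, with changes of 0.03 ± 0.05 and -0.01 ± 0.06 (SE). From squalene on, 11 of 11 genes were lower, with a median of -0.40.

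**Figure D1:**
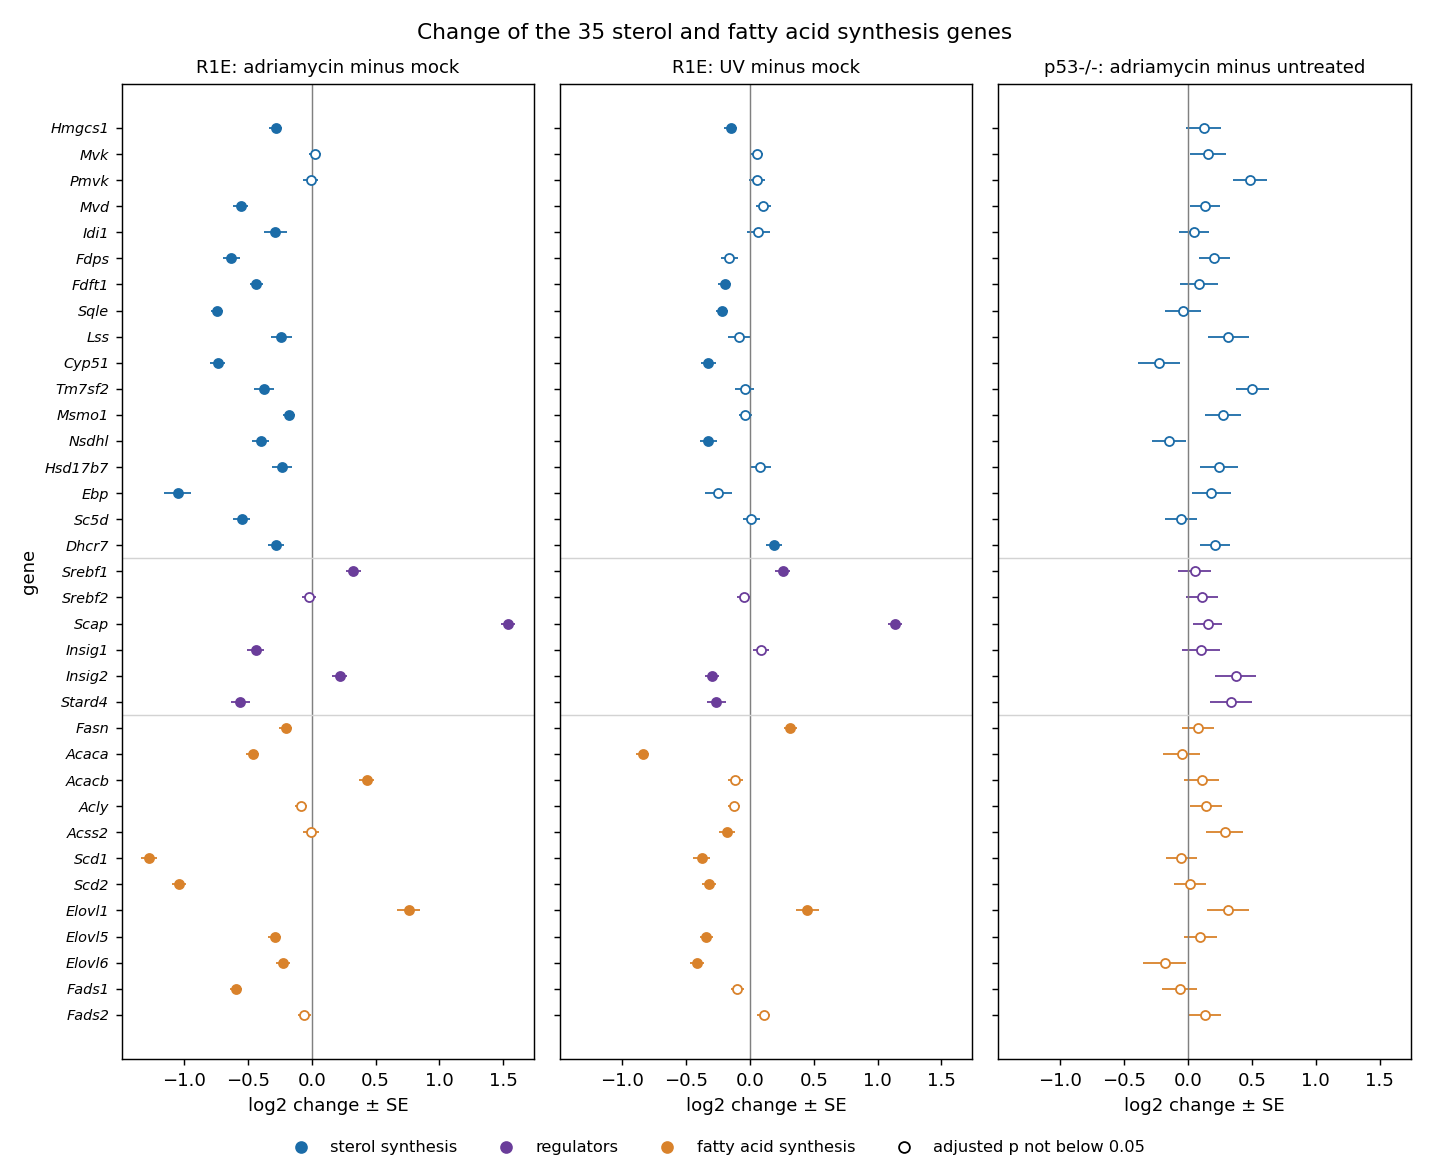
Log2 change with its standard error (horizontal axis) for each of the 35 genes (vertical axis), for adriamycin minus mock and UV minus mock in R1E cells (4 arrays per group) and for adriamycin minus untreated in p53-/- cells (3 arrays per group). Open circles did not reach an adjusted p below 0.05: 15 of 17 sterol genes are filled left of 0 in the left panel, and 0 of 35 genes are filled in the right panel.

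Ebp, the sterol isomerase that moves a ring double bond on the way to cholesterol, fell the most of the sterol genes. It read 6.30, 6.24, 6.46 and 6.48 in the adriamycin arrays, against 7.48, 7.43, 7.44 and 7.31 in the mock arrays. Every adriamycin array was below every mock array, a 2.07-fold lower level (log2 change -1.05 ± 0.11 SE, limma adjusted p = 2.87e-07). Sqle, the squalene epoxidase and a rate-limiting enzyme of the sterol branch, read 9.07, 8.98, 8.99 and 9.07 in the adriamycin arrays, against 9.79, 9.70, 9.73 and 9.86 in the mock arrays. The groups were again fully apart, and the change was -0.74 ± 0.05 (adjusted p = 1.51e-09). Cyp51, the lanosterol demethylase, read 7.78, 7.64, 7.80 and 7.80 after adriamycin, against 8.55, 8.48, 8.49 and 8.45 after mock treatment. Its change of -0.74 ± 0.06 (adjusted p = 1.99e-08) was close to that of Sqle.

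Upstream of squalene, Fdps, which makes farnesyl diphosphate, read 8.73, 8.63, 8.79 and 8.92 after adriamycin, against 9.44, 9.28, 9.41 and 9.46 after mock treatment. It changed by -0.63 ± 0.07 (limma adjusted p = 5.93e-07). Mvd, which decarboxylates mevalonate diphosphate, changed by -0.56 ± 0.06 (adjusted p = 5.45e-07), and Idi1, the isomerase after it, by -0.29 ± 0.09 (adjusted p = 0.0155). Hmgcs1, the synthase that makes HMG-CoA, had the smallest called fall of this arm at -0.28 ± 0.05 (adjusted p = 0.00019). Idi1 overlapped between groups and the others named here did not. Without R1E adriamycin replicate 2, the Idi1 change was -0.20 and missed the threshold (adjusted p = 0.0596).

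Among the remaining sterol genes, Sc5d, a sterol desaturase near the end of the pathway, changed by -0.55 ± 0.07, and Fdft1, the squalene synthase, by -0.43 ± 0.05. Nsdhl and Msmo1, which remove methyl groups from the sterol ring, changed by -0.40 ± 0.07 and -0.18 ± 0.05. Tm7sf2, a sterol reductase, changed by -0.37 ± 0.08, and Dhcr7, which makes cholesterol in the last step, by -0.28 ± 0.06. In limma these 6 genes had adjusted p-values between 2.78e-06 and 0.0067, and their groups did not overlap. Lss, the lanosterol synthase, and Hsd17b7, a ketosteroid reductase, had the least secure falls, at -0.24 ± 0.08 and -0.23 ± 0.08 with overlapping groups. Both lost their call when R1E adriamycin replicate 1 or 2 or mock replicate 1 or 3 was left out, with Lss between -0.22 and -0.18 and Hsd17b7 between -0.22 and -0.17. The fit with only the adriamycin and mock arrays also ended the call of Lss (adjusted p = 0.0522), and quantile normalization ended that of Msmo1 (-0.09, adjusted p = 0.159).

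The adriamycin arrays differed among themselves in this class. Relative to the mock mean of each gene, the median over the 17 sterol genes was -0.42, -0.55, -0.25 and -0.25 in the 4 adriamycin arrays. It was 0.02, -0.14, -0.05 and -0.04 in the UV arrays and 0.03, -0.02, 0.03 and -0.04 in the mock arrays. All 4 adriamycin arrays lay below every UV and mock array, and replicates 1 and 2 lay lower than replicates 3 and 4.

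**Figure D2:**
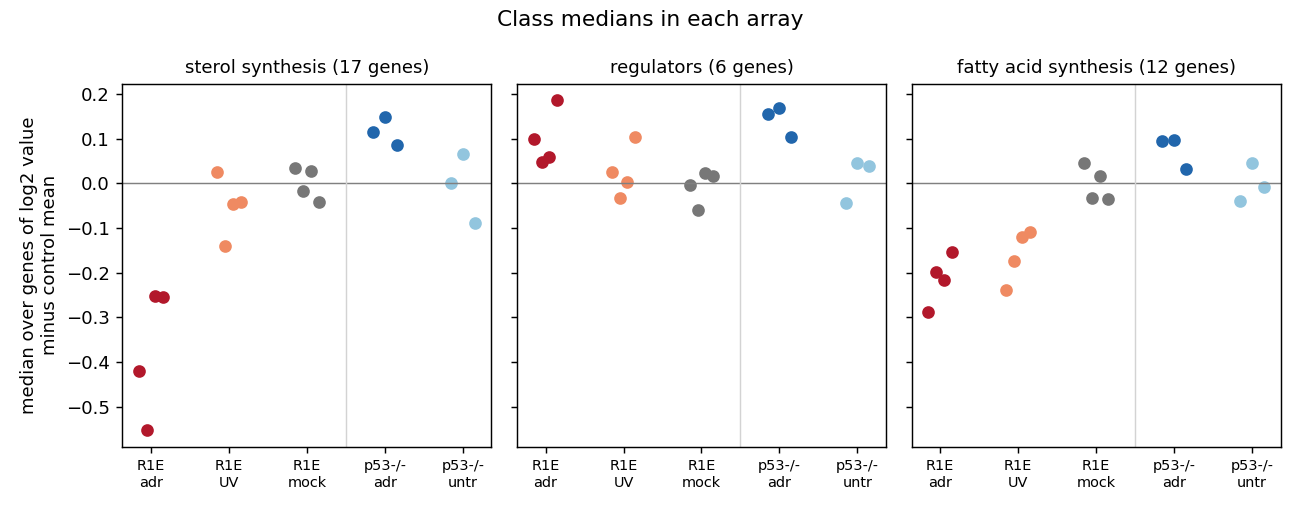
Median over the genes of a class of the log2 value minus that gene's mean in the control arrays (vertical axis), for each array (points) by group (horizontal axis). Controls are mock arrays for R1E and untreated arrays for p53-/- cells; the 4 R1E adriamycin arrays lie at -0.25 or lower for sterol synthesis.

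The promoters of some of these genes are shown because the sterol genes fell together. RefSeq promoters on GRCm38.p6, taken as the 250 bases before the annotated start, were found for 28 of the 35 genes: 14 sterol genes, 5 regulators and 9 fatty acid genes. Sequences were searched on both strands for a sterol regulatory element (TCACNCCAC), a CCAAT box (CCAAT) and an Sp1 GC box (GGGCGG), and a gene counted if any of its listed promoters held the motif. None of these motifs contains another. Of these 28 genes Hmgcs1 alone has an exact match to TCACNCCAC. Mvd, Cyp51 and Ebp, all lower after adriamycin, were added after their values were seen. In the lines below capitals mark the sterol regulatory element and CCAAT boxes, written CCAAT or ATTGG according to strand, and each sequence runs 5′ to 3′ toward the start.
Hmgcs1, chr13:119690101-119690350, plus strand: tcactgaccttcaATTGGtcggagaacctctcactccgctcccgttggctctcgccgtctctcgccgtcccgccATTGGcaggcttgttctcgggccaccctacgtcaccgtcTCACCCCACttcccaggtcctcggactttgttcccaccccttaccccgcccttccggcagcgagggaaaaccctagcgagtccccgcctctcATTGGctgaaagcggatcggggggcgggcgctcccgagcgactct
Mvd, chr8:122443423-122443672, minus strand: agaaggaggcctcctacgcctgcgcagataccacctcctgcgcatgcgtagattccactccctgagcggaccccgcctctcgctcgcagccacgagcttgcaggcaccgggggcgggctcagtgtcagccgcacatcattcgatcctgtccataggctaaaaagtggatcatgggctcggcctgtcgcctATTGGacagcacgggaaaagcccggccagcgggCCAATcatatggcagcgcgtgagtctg
Cyp51, chr5:4104698-4104947, minus strand: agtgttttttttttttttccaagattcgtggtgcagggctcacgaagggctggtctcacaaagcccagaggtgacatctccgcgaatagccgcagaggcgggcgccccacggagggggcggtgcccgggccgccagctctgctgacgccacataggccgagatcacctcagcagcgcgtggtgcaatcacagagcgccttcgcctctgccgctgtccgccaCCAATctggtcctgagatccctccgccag
Ebp, chrX:8193513-8193762, minus strand: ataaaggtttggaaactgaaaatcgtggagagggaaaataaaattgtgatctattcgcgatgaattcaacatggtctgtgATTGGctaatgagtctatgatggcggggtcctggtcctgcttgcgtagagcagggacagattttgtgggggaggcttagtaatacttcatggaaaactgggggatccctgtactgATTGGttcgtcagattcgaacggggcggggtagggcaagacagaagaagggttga

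In Hmgcs1 the sterol regulatory element begins 137 bases before the start, and its 3 CCAAT boxes begin 237, 176 and 45 bases before it. The CCAAT boxes of Mvd begin 60 and 27 bases before the start, that of Cyp51 29 bases before it, and those of Ebp 170 and 55 bases before it. A CCAAT box was present in 14 of 14 sterol genes, 4 of 5 regulators and 5 of 9 fatty acid genes, against 38.8% of 15612 array genes with a promoter. A GC box was present in 13 of 14 sterol genes, 5 of 5 regulators and 4 of 9 fatty acid genes, against 49.31%. An exact match to TCACNCCAC was present in 1 of 14 sterol genes, 0 of 5 regulators and 0 of 9 fatty acid genes, against 1.20%. Other forms of the sterol regulatory element and sites outside the window were not searched, so genes without a match may still hold one. These matches describe the letters of the window and were not tested against the expression changes.

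The regulators did not move as 1 group after adriamycin in R1E cells: 3 of 6 were higher and 2 were lower. Among genes brighter than the median R1E gene, 29.1% were called higher and 41.2% lower. The median of the regulators was 0.10. It turned to -0.03 when arrays were centred on the median of all genes, which put the median change of all genes at -0.14. Scap, the SREBP escort, had the largest rise of all 35 genes. It read 9.72, 9.73, 9.77 and 9.81 in the adriamycin arrays, 9.24, 9.50, 9.35 and 9.33 in the UV arrays, and 8.21, 8.15, 8.31 and 8.19 in the mock arrays. The 3 groups were fully apart, with adriamycin highest. Scap was 2.9-fold higher after adriamycin than after mock treatment (1.54 ± 0.06, limma adjusted p = 1.48e-12) and 2.2-fold higher after UV (1.14 ± 0.06, adjusted p = 1.69e-10).

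Insig1, which retains Scap in the endoplasmic reticulum and is itself a known SREBP target, read 9.62, 9.47, 9.63 and 9.72 in the adriamycin arrays, 10.21, 9.99, 10.13 and 10.24 in the UV arrays, and 10.05, 10.07, 9.98 and 10.11 in the mock arrays. The adriamycin arrays stood below all others, with a change of -0.44 ± 0.06 (limma adjusted p = 2.1e-05). Insig2, the second retention protein, read 8.29, 8.20, 8.26 and 8.40 in the adriamycin arrays, 7.85, 7.70, 7.77 and 7.76 in the UV arrays, and 8.15, 8.07, 8.07 and 7.98 in the mock arrays. It moved opposite ways with the treatments, by 0.22 ± 0.06 after adriamycin (adjusted p = 0.00371) and -0.30 ± 0.06 after UV (adjusted p = 0.000332). Centring the arrays ended the call of the Insig2 rise (0.09, adjusted p = 0.154).

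Stard4, a soluble protein that carries sterol between membranes, read 7.29, 7.12, 7.38 and 7.31 after adriamycin, against 7.96, 7.75, 7.87 and 7.78 after mock treatment. It fell in every adriamycin array relative to every mock array, by 0.56 on the log2 scale (-0.56 ± 0.07, limma adjusted p = 6.36e-06). Srebf1 read 8.72, 8.83, 8.76 and 8.93 after adriamycin, against 8.48, 8.43, 8.50 and 8.54 after mock treatment, a change of 0.33 ± 0.06 (adjusted p = 0.000241). Stard4 was also called lower after UV (-0.26) and Srebf1 higher (0.26). Srebf2, whose protein mainly drives sterol genes, changed by -0.02 ± 0.05 (adjusted p = 0.784). With centred arrays it changed by -0.15 and passed the threshold (adjusted p = 0.02), but the median over all genes was then -0.14.

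**Figure D3:**
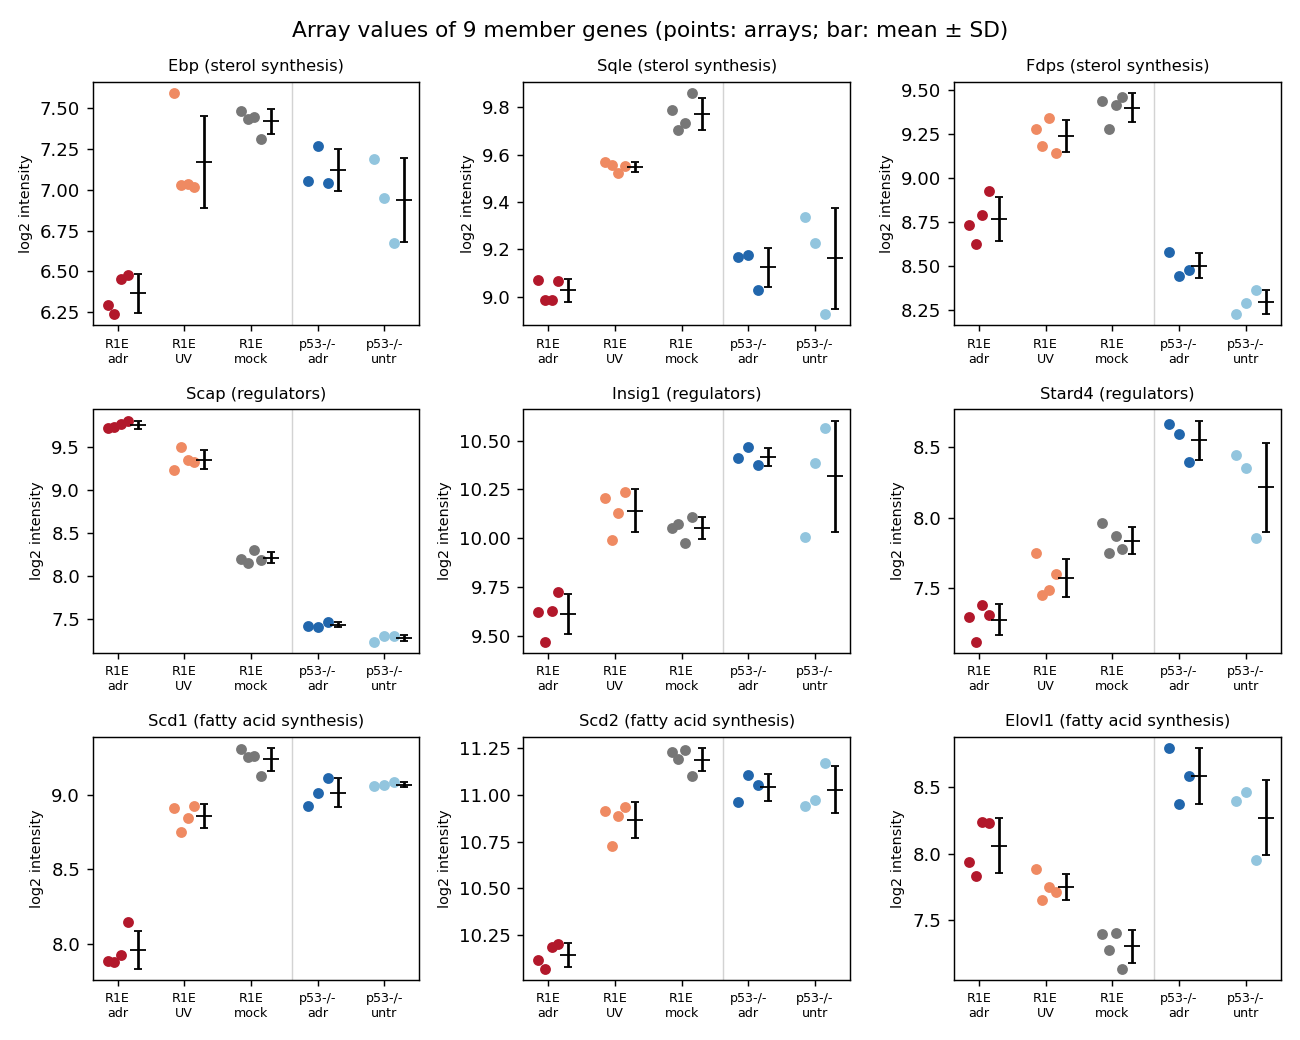
Log2 intensity (vertical axis) of 9 genes in each array (points), with mean and standard deviation (bar), by group (horizontal axis; adr is adriamycin, untr is untreated). In R1E cells Ebp, Sqle, Fdps, Insig1, Stard4, Scd1 and Scd2 are lower after adriamycin than after mock treatment, and Scap and Elovl1 are higher; the R1E and p53-/- sets were normalized separately, so levels are compared only within a set.

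Of the 12 fatty acid synthesis genes, 7 were lower and 2 were higher after adriamycin in R1E cells, with a median of -0.22. Among genes brighter than the median R1E gene, 41.2% were called lower and 29.1% higher. Scd1 and Scd2, the stearoyl-CoA desaturases that put the first double bond into saturated fatty acids, fell the most in this class, and Scd1 had the largest fall of all 35 genes. Scd1 read 7.89, 7.88, 7.93 and 8.15 in the adriamycin arrays, 8.91, 8.75, 8.84 and 8.93 in the UV arrays, and 9.31, 9.25, 9.26 and 9.12 in the mock arrays. Scd2 read 10.12, 10.07, 10.19 and 10.20 in the adriamycin arrays, 10.91, 10.73, 10.89 and 10.93 in the UV arrays, and 11.23, 11.19, 11.24 and 11.10 in the mock arrays. Both genes were lowest after adriamycin, next after UV and highest after mock treatment, with no overlap between groups. After adriamycin Scd1 was 2.42-fold lower (-1.27 ± 0.07, limma adjusted p = 8.21e-11) and Scd2 2.06-fold lower (-1.04 ± 0.06, adjusted p = 1.61e-10).

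Fads1, a desaturase of polyunsaturated fatty acids, read 9.16, 9.09, 9.10 and 9.18 after adriamycin, against 9.74, 9.71, 9.79 and 9.66 after mock treatment. Its change was -0.59 ± 0.05 (limma adjusted p = 2.57e-08), whereas Fads2, its partner in that pathway, changed by -0.06 ± 0.05 and did not pass the test. Acaca, the cytosolic acetyl-CoA carboxylase that commits carbon to fatty acids, fell by 0.46 on the log2 scale (adjusted p = 1.09e-06). The elongases Elovl5 and Elovl6 changed by -0.29 ± 0.05 and -0.22 ± 0.05, and Fasn, the fatty acid synthase, by -0.21 ± 0.05 (adjusted p-values between 9.93e-05 and 0.00298). Quantile normalization ended the call of Fasn (-0.11, adjusted p = 0.0952).

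The rises in this class were Elovl1, an elongase of very long saturated chains, and Acacb, the mitochondrial acetyl-CoA carboxylase whose malonyl-CoA restrains fatty acid oxidation. Elovl1 read 7.94, 7.83, 8.24 and 8.23 in the adriamycin arrays, 7.88, 7.65, 7.75 and 7.71 in the UV arrays, and 7.39, 7.27, 7.40 and 7.13 in the mock arrays. Every adriamycin array was above every mock array (0.76 ± 0.09, limma adjusted p = 2.19e-06), with some overlap with the UV arrays. Acacb read 7.18, 7.17, 7.32 and 7.21 in the adriamycin arrays, 6.68, 6.67, 6.66 and 6.68 in the UV arrays, and 6.86, 6.64, 6.88 and 6.76 in the mock arrays. The adriamycin arrays alone were high, with a change of 0.43 ± 0.06 (adjusted p = 8.12e-06). Acly and Acss2, which supply acetyl-CoA from citrate and acetate, changed by -0.08 ± 0.05 and -0.01 ± 0.06. Neither passed the test. Centring made Acly (-0.21) and Fads2 (-0.18) called falls, but the median over all genes was then -0.14.

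The level of the arrays bears on all these counts. Centring each array on the median of all genes moved the median adriamycin change of all genes to -0.14. It left 9640 genes called lower and 3281 higher, so that 25.4% of all calls were higher in place of 46.3%. With it, 27 of the 35 members were lower and 4 higher, against 24 and 5 on the deposited values. The median change of the sterol genes became -0.50, which lay below the median of all genes by about the same distance as before.

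UV was compared with the same mock arrays, so its changes share a control with those of adriamycin. Here 5 of 17 sterol genes were lower and 1 was higher, with a median of -0.04, against 0.03 over all genes. The background was 21.2% of all genes lower and 22.6% higher, and 35.5% lower and 29% higher among genes brighter than the median. Nsdhl had the largest sterol fall, reading 8.41, 8.31, 8.32 and 8.34 in the UV arrays, against 8.69, 8.63, 8.72 and 8.65 in the mock arrays (-0.33 ± 0.07, limma adjusted p = 0.000714). Cyp51 read 8.13, 8.06, 8.15 and 8.32 after UV and changed by -0.33 ± 0.06 (adjusted p = 0.000253). Sqle read 9.57, 9.56, 9.52 and 9.55 after UV and changed by -0.22 ± 0.05 (adjusted p = 0.00129). All 3 were below every mock array.

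Dhcr7, which completes cholesterol, was the sterol gene called higher after UV. It read 9.03, 9.21, 9.04 and 8.98 in the UV arrays, against 8.90, 8.83, 8.94 and 8.84 in the mock arrays, a change of 0.19 ± 0.06 (limma adjusted p = 0.0205). The groups were apart by a narrow margin, and the call was lost with centred arrays (0.11, adjusted p = 0.15) and without UV replicate 2 or mock replicate 2 (0.14 to 0.17). Ebp was uneven after UV, at 7.59, 7.03, 7.04 and 7.02, and replicate 1 alone stood above the mock arrays. Its change of -0.25 ± 0.11 did not pass the test (adjusted p = 0.0677), but without UV replicate 1 it was -0.39 and did (adjusted p = 0.000187), as it did with centred arrays (-0.33, adjusted p = 0.0189) and with dim genes left out (adjusted p = 0.0476). Fdps, at -0.16 ± 0.07 (adjusted p = 0.0617), also passed without UV replicate 3 or mock replicate 2 (-0.20 each), with centred arrays (-0.24, adjusted p = 0.00555), with only the UV and mock arrays (0.0459), with the trend prior (0.0332) and with dim genes left out (0.0381). Hmgcs1, at -0.15 ± 0.05 (adjusted p = 0.0257), lost its call without any of UV replicates 2 and 3 and mock replicates 1 and 3, with values of -0.15 to -0.14. With quantile normalization it was -0.08 and also missed the threshold (adjusted p = 0.202).

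In the fatty acid class 6 of 12 genes were lower and 2 higher after UV, with a median of -0.15. Among genes brighter than the median R1E gene, 35.5% were called lower and 29% higher. Acaca, the carboxylase that opens the pathway, fell the most. It read 8.25, 8.32, 8.25 and 8.43 in the UV arrays, 8.68, 8.71, 8.69 and 8.69 in the adriamycin arrays, and 9.15, 9.08, 9.16 and 9.22 in the mock arrays. The UV arrays were lowest and the mock arrays highest, with no overlap, and the UV change was 1.79-fold lower (-0.84 ± 0.05, limma adjusted p = 1.63e-09). A second, dimmer Acaca probe gave -0.87 ± 0.08 for UV and -0.52 ± 0.08 for adriamycin. Elovl6, which lengthens palmitate, read 9.40, 9.20, 9.33 and 9.29 after UV, against 9.77, 9.75, 9.72 and 9.62 after mock treatment (-0.41 ± 0.05, adjusted p = 8.93e-06).

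Scd1 and Scd2 fell less after UV than after adriamycin, by 0.38 and 0.32 on the log2 scale (limma adjusted p = 0.000168 and 0.000189). Fasn moved against its direction after adriamycin. It read 10.48, 10.56, 10.48 and 10.59 in the UV arrays, 9.94, 10.03, 9.96 and 10.09 in the adriamycin arrays, and 10.21, 10.15, 10.22 and 10.27 in the mock arrays. Every UV array was above and every adriamycin array below the mock arrays, and the UV change was 0.32 ± 0.05 (adjusted p = 8.08e-05). Elovl1 rose by 0.45 ± 0.09 after UV (adjusted p = 0.00066). Acss2 was called lower at -0.18 ± 0.06 (adjusted p = 0.0296), a call lost without UV replicate 1 or 2 or mock replicate 1 or 3 (-0.17 to -0.15).

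The treatments were then set against each other directly, in the fit over all 12 R1E arrays, whose spread includes the mock arrays. After adriamycin 17 of 17 sterol genes had lower means than after UV, and 13 were called lower and 0 higher, with a median of -0.33 against -0.04 over all genes. Over all genes 22.2% were called lower and 19.8% higher, and among those brighter than the median 33% and 29.9%. The fatty acid genes divided evenly, with 5 of 12 lower and 5 higher and a median of 0.05. With centred arrays that median was -0.0022, against -0.09 over all genes. Of the 6 regulators 2 were lower and 2 higher. The difference between these classes had no test of its own.

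Ebp differed by -0.80 ± 0.11 between adriamycin and UV (limma adjusted p = 1.17e-05). Mvd read 7.38, 7.45, 7.53 and 7.65 in the adriamycin arrays, 8.11, 8.27, 8.14 and 8.12 in the UV arrays, and 8.02, 8.06, 8.07 and 8.09 in the mock arrays. It was low in the adriamycin arrays alone, with a difference of -0.66 ± 0.06 (adjusted p = 1.69e-07). Sc5d read 7.96, 7.63, 7.78 and 7.97 in the adriamycin arrays, 8.43, 8.39, 8.35 and 8.42 in the UV arrays, and 8.43, 8.37, 8.43 and 8.31 in the mock arrays. Its UV and mock arrays interleaved while the adriamycin arrays were below both (-0.56 ± 0.07, adjusted p = 5.25e-06). Dhcr7 differed by -0.47 ± 0.06 and Insig1 by -0.53 ± 0.06 (adjusted p = 1.15e-05 and 5.18e-06). The called differences of Hmgcs1 and Msmo1 were small, at -0.13 and -0.14, and did not hold in several alternatives. In a fit with only the adriamycin and UV arrays, 24 members were called in place of 27, where 40.5% of all genes were called. Hmgcs1 (adjusted p = 0.0821), Msmo1 (0.0526) and Acss2 (0.0555) lost their calls there. Quantile normalization also ended those calls (adjusted p = 0.0563, 0.0839 and 0.0786), and centring ended that of Acss2 (0.12, adjusted p = 0.108). Hmgcs1 lost its call without adriamycin replicate 1 or 2 or any UV array (-0.14 to -0.10), and Msmo1 without adriamycin replicate 2, 3 or 4 or UV replicate 3 or 4 (-0.14 to -0.12). Lss gained a call without adriamycin replicate 4 (-0.22).

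Scd1 (-0.90 ± 0.07), Scd2 (-0.72 ± 0.06), Fasn (-0.52 ± 0.05), Fads1 (-0.50 ± 0.05) and Fads2 (-0.17 ± 0.05) were the fatty acid genes lower after adriamycin than after UV. Acacb (0.54 ± 0.06), Acaca (0.38 ± 0.05), Elovl1 (0.31 ± 0.09), Elovl6 (0.19 ± 0.05) and Acss2 (0.17 ± 0.06) were higher. Acss2 lost its call without adriamycin replicate 1, 3 or 4 or UV replicate 1 or 2 (0.14 to 0.18). Among the regulators Insig2 was higher by 0.52 ± 0.06 (limma adjusted p = 1.46e-06) and Scap by 0.40 ± 0.06 (adjusted p = 2.91e-05), while Stard4 was lower by 0.30 (-0.30 ± 0.07, adjusted p = 0.00366).

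The genes higher after adriamycin than after UV were mostly long, with Elovl1 (6.08 kb) as an exception. Gene span was taken from the RefSeq table of GRCm38.p6, whose build may differ from that of the array. Over the 35 genes the difference between adriamycin and UV had a Spearman rank correlation with span of 0.67. That of the adriamycin change against mock was 0.42, and that of the UV change against mock -0.28. The correlation over all genes was not examined. Acaca, the longest at 272 kb, had the largest UV fall, and Acacb (104 kb) and Elovl6 (106 kb) were also above UV after adriamycin. The median span was 16.1 kb for sterol genes, 26.7 kb for regulators and 41.7 kb for fatty acid genes, so class and span overlap. Within the classes the correlation for adriamycin against UV was 0.42 over 17 sterol genes, 0.60 over 6 regulators and 0.62 over 12 fatty acid genes. The points share the same arrays, and any pair of these differences shares a group of arrays, so these values describe the genes and carry no test.

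**Figure D4:**
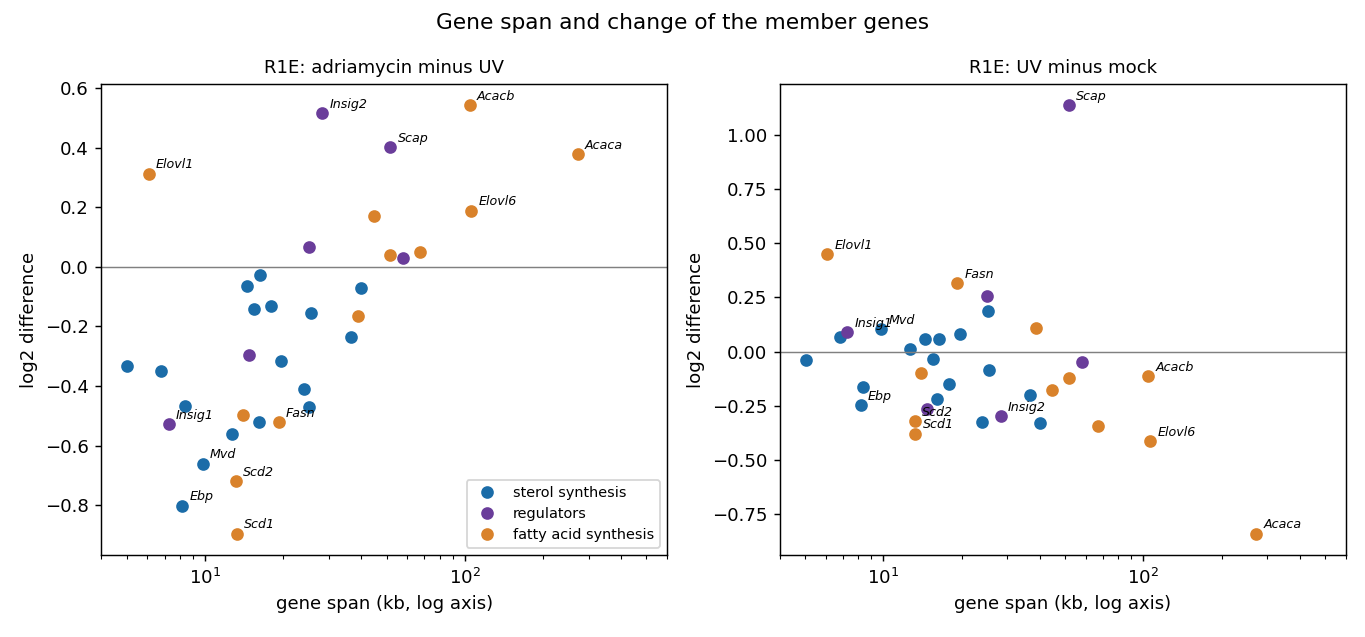
Log2 difference (vertical axis) against gene span in kb (horizontal log axis) for the 35 genes, coloured by class, for adriamycin minus UV (left) and UV minus mock (right) in R1E cells. In the left panel Acaca, Acacb and Elovl6, each above 100 kb, lie above 0, while the short genes Scd1, Scd2 and Ebp lie lowest.

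In p53-/- cells the question was which of these genes adriamycin changed without p53, and 0 of 35 passed the test. Over all genes limma called 0.0803% lower and 0.0150% higher. At an unadjusted p below 0.05, 3 members were reached (Tm7sf2, Pmvk and Insig2), all higher. Over all 19935 genes 2319 reached it, in either direction. The median change was 0.16 for the sterol genes, 0.13 for the regulators and 0.09 for the fatty acid genes, against 0.06 over all genes. With centred arrays these class medians were 0.06, 0.04 and -0.0046, against -0.03 over all genes. Non-overlapping groups were found for 6 members, all higher, where 12.3% of all genes were higher and 5.22% lower without overlap. These were Pmvk, Mvd, Fdps, Tm7sf2, Dhcr7 and Scap.

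Tm7sf2, the sterol reductase, had the largest p53-/- change. It read 7.55, 7.62 and 7.43 in the adriamycin arrays, against 6.94, 7.21 and 6.94 in the untreated arrays (0.50 ± 0.13, limma adjusted p = 0.203). Pmvk read 8.39, 8.28 and 8.46 in the adriamycin arrays, against 8.08, 7.79 and 7.80 in the untreated arrays (0.49 ± 0.13, adjusted p = 0.205). The adriamycin arrays were the higher in both genes, and neither difference passed the test over all genes. Ebp read 7.05, 7.27 and 7.04 after adriamycin, against 7.19, 6.95 and 6.68 without it, with overlap (0.18 ± 0.15, 95% interval -0.15 to 0.51). Scd1 read 8.92, 9.01 and 9.11 after adriamycin, against 9.05, 9.06 and 9.08 without it, with overlap (-0.05 ± 0.12, interval -0.32 to 0.21). Scap read 7.43, 7.42 and 7.48 after adriamycin, against 7.24, 7.31 and 7.31 without it, a change of 0.15 ± 0.12 (interval -0.10 to 0.41).

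The wider spread of this set limits what its intervals exclude, and in simulated data of this size most of the smaller changes in p53-/- cells were missed. The R1E falls of Ebp and Scd1 lay outside the p53-/- intervals given above. For Nsdhl, at -0.15 ± 0.13 in p53-/- cells, the 95% interval of -0.44 to 0.14 held the R1E change of -0.40. For Elovl6, at -0.18 ± 0.17, the interval of -0.55 to 0.19 held the R1E change of -0.22.

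The adriamycin effects in R1E and p53-/- cells were then compared, as the R1E change minus the p53-/- change with the spread of each set kept. The genotype, the line, the array set and the software that processed it differ together here and cannot be told apart. All 17 sterol genes had a negative difference, with a median of -0.50, and 13 were called lower and 0 higher. Over all genes the median was -0.07, with 11.4% called lower and 10.4% higher, and among genes brighter than the median 18.1% lower and 12.5% higher. Ebp had the largest sterol difference at -1.23 ± 0.18 (limma effects, adjusted p = 2.65e-05), followed by Tm7sf2 (-0.88 ± 0.15, adjusted p = 0.000235), Fdps (-0.84 ± 0.14, adjusted p = 0.000157), Sqle (-0.71 ± 0.15, adjusted p = 0.00255) and Mvd (-0.69 ± 0.13, adjusted p = 0.000855). Tm7sf2 combined a change of -0.37 in R1E cells with 0.50 in p53-/- cells. Pmvk (-0.49 ± 0.14) combined -0.01 in R1E cells with 0.49 in p53-/- cells. Hmgcs1, Mvk, Idi1 and Nsdhl did not pass, although Hmgcs1 (-0.40) did with 1 shared spread, array weights or centring (adjusted p = 0.0118, 0.0363 and 0.041).

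Among the regulators Scap differed by 1.39 ± 0.13 (adjusted p = 3.97e-07), Stard4 by -0.89 ± 0.18 (adjusted p = 0.00142) and Insig1 by -0.54 ± 0.16 (adjusted p = 0.0254), by the difference of limma effects. For Stard4 the p53-/- arrays read 8.66, 8.59 and 8.40 after adriamycin, against 8.44, 8.35 and 7.86 without it. For Insig1 they read 10.41, 10.47 and 10.38 after adriamycin, against 10.01, 10.39 and 10.56 without it. Both overlapped in the p53-/- set, and Srebf1, Srebf2 and Insig2 did not pass the test of the difference.

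Of the 12 fatty acid genes 3 were called, all lower: Scd1 by -1.22 ± 0.14 (adjusted p = 1.95e-06), Scd2 by -1.05 ± 0.14 (adjusted p = 2.26e-05) and Fads1 by -0.53 ± 0.14 (adjusted p = 0.0149), from the limma effects. The class median was -0.29. Among genes brighter than the median, 18.1% were called lower and 12.5% higher. Scd2 read 10.96, 11.10 and 11.05 in the p53-/- adriamycin arrays, against 10.94, 10.97 and 11.17 in the untreated arrays, and Fads1 read 8.30, 8.61 and 8.60 in the p53-/- adriamycin arrays, against 8.49, 8.53 and 8.69 in the untreated arrays. Both were level within the spread of their arrays. Acaca (-0.41 ± 0.15, adjusted p = 0.0726) and Elovl5 (-0.39 ± 0.14, adjusted p = 0.0573) missed the threshold by a margin that depended on the processing. Acaca passed with 1 shared spread (0.017), array weights (0.0408), centring (0.0471) and quantile normalization within sets or over all arrays (0.034 and 0.036). Elovl5 passed with 1 shared spread (0.0071), array weights (0.0303), centring (0.0381) and dim genes left out (0.0483). Elovl6 (-0.04 ± 0.18) had nearly the same change in both sets. Elovl1 changed by 0.31 in p53-/- cells, and its difference of 0.45 did not pass. Without p53-/- untreated replicate 3 the Elovl1 difference was 0.61 and passed the same test (adjusted p = 0.009). For Idi1 the dimmer probe gave -0.04 ± 0.18 in place of -0.33 ± 0.15, and neither probe passed.

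The test of the difference gave more false calls in simulated data than its threshold allows. Far fewer genes changed in the simulation than are called here, so the size of that excess in these data is not known. Calls close to the threshold may be less secure than their adjusted p states. The count of 19 called differences, 18 lower and 1 higher, depended on single p53-/- arrays. It was 11 without p53-/- adriamycin replicate 1, and 12 without p53-/- adriamycin replicate 2, p53-/- untreated replicate 1 or p53-/- untreated replicate 2. Calls over all genes fell as well. With all arrays 11.4% of all genes were called lower and 10.4% higher. In these fits 16.2%, 16.9%, 18.6% and 17.8% were called in either direction, in the order given. The differences of Ebp, Tm7sf2, Fdps, Sqle, Mvd, Scap, Stard4, Scd1 and Scd2 kept their call without any 1 array. Those of Pmvk, Fdft1, Lss, Cyp51, Msmo1, Hsd17b7, Sc5d, Dhcr7, Insig1 and Fads1 each lost it without at least 1 array, with values between -0.61 and -0.36 there.

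Related genes outside the list were examined for the same treatments, and their counts stand against the 22.1% of all genes called higher and 25.6% called lower after adriamycin, and the 22.6% and 21.2% after UV. Of 8 further sterol and SREBP genes, 2 were lower and 2 higher after adriamycin in R1E cells, among them Ggps1, which makes geranylgeranyl diphosphate (-0.41 ± 0.06), and Aacs, which activates acetoacetate (0.34 ± 0.05). Of 23 further fatty acid and lipogenic genes 11 were lower and 6 higher. Elovl7 (-0.89 ± 0.10) and Acsl4 (-0.86 ± 0.08), an elongase and an acyl-CoA ligase, fell the most. Elovl2, an elongase of polyunsaturated chains, was 5.68-fold higher (2.51 ± 0.06, limma adjusted p = 5.37e-15), averaging 8.97 ± 0.06 after adriamycin, 7.89 ± 0.04 after UV and 6.46 ± 0.10 after mock treatment (SD, n = 4 each). Lpin1, a phosphatidate phosphatase, was 2.78-fold higher (1.48 ± 0.04, adjusted p = 9.7e-14).

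Of 12 genes of sterol export, esterification and LXR signalling, 6 were higher and 2 lower after adriamycin against mock, with a median of 0.10. After UV 7 were higher and 2 lower, with a median of 0.16. Cyp27a1, which makes an oxysterol from cholesterol, was 3.94-fold higher (1.98 ± 0.06, limma adjusted p = 2.16e-13), and Abcg1, a sterol exporter, 2.42-fold higher (1.27 ± 0.06, adjusted p = 1.27e-11). Of 20 fatty acid oxidation genes 8 were higher and 5 lower after adriamycin against mock, 7 were higher and 7 lower after UV against mock, and 10 were higher and 2 lower after adriamycin against UV, where 19.8% of all genes were higher and 22.2% lower. Cpt1c, a neuronal relative of the carnitine palmitoyltransferases, and Etfdh, which passes electrons from acyl-CoA oxidation to ubiquinone, rose by 1.65 ± 0.07 and 1.21 ± 0.06. Cpt1a, the carnitine palmitoyltransferase of most tissues, fell by 0.50 (-0.50 ± 0.05, adjusted p = 4.28e-07). In p53-/- cells 0 genes of these 4 lists were called by limma. At an unadjusted p below 0.05 there were 1, 5, 4 and 3 genes of the lists, in the order given. Over all 19935 genes there were 2319. In the difference between R1E and p53-/- cells, 1, 5, 2 and 3 genes of these lists were called lower. Called higher were 0, 2, 3 and 3, where 11.4% of all genes were lower and 10.4% higher. The lowest differences were -0.50, -1.19, -0.84 and -0.76 by list. Elovl2 (2.35), Cyp27a1 (1.86), Lpin1 (1.52) and Cpt1c (1.26) were among those called higher.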

How the data were processed

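The deposited table holds log2 intensities, 1 per probe and array. For the R1E set the authors used Affymetrix Expression Console 1.1, per the submitters' processing notes, which name no algorithm. The same notes give RMA and Partek 6.4 for the p53-/- set. As each set was normalized on its own, levels were tested only within a set.

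Of 28853 probes, 28815 had values on all arrays, and the platform annotation gave 1 symbol for 21780, several for 1605 and none for 5430. Only probes with 1 symbol were named, and symbols were checked through the RefSeq table of GRCm38.p6, where 0 changed. The brightest probe stood for each of 998 genes with several, which left 19935 genes. Of the members, Idi1, Fdft1 and Acaca had a second probe.

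limma 3.58.1 (R 4.3.3) was fitted with lmFit and eBayes on the deposited values of all genes: 12 R1E arrays in 1 fit and 6 p53-/- arrays in another. The threshold was a Benjamini-Hochberg adjusted p below 0.05 over all genes. The difference of the adriamycin effects used each set's own moderated standard errors with Satterthwaite degrees of freedom. The script was tested on simulated data with far fewer changed genes than are called in R1E cells. There false calls of the 4 within-set comparisons stayed near the threshold and those of the difference of effects exceeded it. No 2 arrays were the same (highest correlation 0.99862).

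The members, lists and rules were chosen with earlier results of these data known. Array values are given for up to 3 members with the largest called changes per class, direction and comparison, and for genes a sentence turns on. Alternatives covered centring, quantile normalization, dim genes, the probe used, the prior of eBayes, which arrays enter the fit, the spread, a replicate block and each array left out. The dimmer probes of Idi1, Fdft1 and Acaca, and quantile normalization over all 18 arrays, were added after seeing the data.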

Additional observations from a re-analysis of the deposited data

Results flagged for a closer look

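In 5 of 105 groups of 4 arrays, the highest or lowest array stood apart from the others by Dixon's test at the 95% level, which chance alone gives in about 1 of 20 groups. Acaca in R1E adriamycin replicate 2 was high at 8.709, with the nearest other array at 8.687 in a very tight group. Cyp51 in R1E adriamycin replicate 2 was low at 7.637, with the next array at 7.778. Ebp in R1E UV replicate 1 was high at 7.588, with the others at 7.037 or lower. Fads2 in R1E mock replicate 2 was low at 9.657, with the next at 9.701, and Scd1 in R1E adriamycin replicate 4 was high at 8.147, with the next at 7.926.

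For 19 genes the adriamycin effect differed between R1E and p53-/- cells by the test of the difference of limma effects at an adjusted p below 0.05. Of all genes 11.4% were called lower and 10.4% higher by the same test. On the log2 scale, R1E minus p53-/-, the differences among mevalonate genes were -0.494 for Pmvk, -0.687 for Mvd and -0.836 for Fdps. From squalene on they were -0.521 for Fdft1, -0.705 for Sqle, -0.556 for Lss, -0.512 for Cyp51, -0.878 for Tm7sf2 and -0.456 for Msmo1. They were -0.476 for Hsd17b7, -1.232 for Ebp, -0.495 for Sc5d and -0.493 for Dhcr7. Among regulators they were 1.386 for Scap, -0.541 for Insig1 and -0.895 for Stard4. Among fatty acid genes they were -1.221 for Scd1, -1.054 for Scd2 and -0.526 for Fads1. The line and its genotype cannot be told apart from the array set and its software in these differences.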

How the results depend on the processing

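No value of the members changed sign while called under any alternative. With the replicate block 29, 19, 25, 0 and 20 members were called for adriamycin against mock, UV against mock, adriamycin against UV, p53-/- adriamycin and the difference of effects, against 29, 18, 27, 0 and 19 without it. Of all genes the block called 47.3%, 43.5%, 41.3%, 0.0251% and 22%, in that order. Same-numbered arrays correlated between -0.142 and 0.191 in their deviations, so the numbers do not pair the arrays. Differently numbered R1E mock and adriamycin arrays correlated between -0.423 and 0.391. Some deviations were thus shared across these groups under other numbers, and their source was not tested. The block added the calls of Fdps after UV (adjusted p = 0.0482) and of Acaca in the difference of effects (0.0453), and ended those of Hmgcs1 and Msmo1 between adriamycin and UV (0.0696 and 0.0541). Leaving out 1 array gave 26 to 29 members for adriamycin against mock, 16 to 19 for UV, 25 to 26 for adriamycin against UV, 0 in p53-/- cells and 11 to 21 for the difference. Of all genes 44.8% to 46.9%, 39.5% to 44.6%, 38.3% to 41.2%, 0% to 2.22% and 16.2% to 25% were called there, in that order. With 1 shared spread 23 differences were called, with array weights 20, and with quantile normalization over all arrays 17. Of all genes 29.1%, 21.2% and 20.7% were called in these fits. Of the single-gene values under the other alternatives, 1374 kept their side of the threshold, 33 gained a call and 24 lost it. With 1 array left out, 1448 kept it, 11 gained and 81 lost. Cyp51 lost its call in the difference of effects with the trend prior (adjusted p = 0.0517), and Hsd17b7 with that prior or array weights (0.0516 and 0.0843). Lss lost it with array weights (0.0644) or quantile normalization over all arrays (0.06), and Insig1 and Msmo1 with quantile normalization within sets (0.0686 and 0.107). Centring moved the share of higher calls among all genes to 35.3% from 51.6% for UV and to 34.7% from 47.2% for adriamycin against UV. In p53-/- cells that share was 4.2% in place of 15.8% of very few calls. Over all genes, the p53-/- calls (16 lower, 3 higher) became 5 and 0 with the replicate block, 0 and 0 without adriamycin replicate 1 or 2, 1 and 0 without adriamycin replicate 3, 5 and 1 without untreated replicate 1, and 4 and 1 without untreated replicate 2. For the members, centring gave 18 lower and 4 higher members for UV, against 13 and 5, and turned the median of the regulators after UV from 0.02 to -0.06. The median UV change over all genes went from 0.03 to -0.05 with it. The cause was not tested. The number of arrays, and the wider spread of the p53-/- set, limit the precision.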
